A study of Mus musculus with 16 samples.

Results

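Npas4, Klf2, Klf4, Klf10, Ier2, Ier5, Maff, Btg2, Csrnp1 and Srf are immediate early regulators of transcription outside the Fos/Jun, Egr and Nr4a families. These 10 genes were chosen by name, with earlier results of these data known, out of 35328 genes in the count table. All 10 were among the 17830 genes that passed the count filter of edgeR. RNA-Seq had been made from the dorsal hippocampus of 16 C57Bl6/J mice in 4 groups of 4. Home cage water mice drank water and rested in their cage, and home cage caffeine mice rested likewise but drank caffeine at 0.3 g/L for 2 weeks from an age of 8 to 9 weeks. Learning water and learning caffeine mice had these same drinks and were habituated to the pool for 2 days and trained for 3 days to find the hidden platform of the Morris water maze, a spatial memory task, and their tissue was taken 1 hour after the last training. Resting mice did not swim, so in learning against home cage the effects of swimming, handling and spatial learning cannot be told apart. Each mouse is named by its group and the number in its label.

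Immediate early genes are transcribed within minutes of a stimulus, because the factors that switch them on are already present and need only to be activated. In hippocampal neurons, calcium and cAMP signals act through CREB bound to the cAMP response element (CRE), and growth factor and actin signals act through SRF bound to the CArG box together with its cofactors of the TCF and MRTF families. The products of these genes are themselves regulators: NPAS4 is a neuronal bHLH-PAS factor that tunes inhibitory synapses, KLF2, KLF4 and KLF10 are zinc finger factors, MAFF is a small Maf protein without a transactivation domain, BTG2 is an antiproliferative cofactor that also recruits mRNA deadenylases, IER2, IER5 and CSRNP1 are rapidly induced nuclear proteins, and SRF is both a regulator of immediate early genes and one of them.

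RefSeq promoters (GRCm38.p6, 250 bases before to 50 after each annotated start) were found for 8 of the 10 genes, in 13 windows, and not for Klf10 and Ier2. They were searched on both strands for the CRE (TGACGTCA), its core (TGACG, which every full CRE also contains), the AP-1 site (TGANTCA) and the CArG box. Of the 32851 mouse promoters in the same table, 1.79% held the CRE, 20.8% its core, 7.81% the AP-1 site and 1.63% the CArG box. The stretches below are shown because they hold the full CRE or CArG box, or, for Npas4, because it was the gene called in learning water mice; capitals mark the CRE core in Npas4, the CArG boxes in Srf and the CRE in Maff and Btg2. All are written 5′ to 3′ on the strand of the gene.
Npas4, chr19:4990128-4990157, minus strand: cgttcgaCGTCAcgggaTGACGtcggaagt
Srf, chr17:46556203-46556272, minus strand: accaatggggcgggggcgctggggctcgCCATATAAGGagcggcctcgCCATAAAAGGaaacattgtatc
Maff, chr15:79347460-79347519, plus strand: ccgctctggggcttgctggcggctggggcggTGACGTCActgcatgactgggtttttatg
Btg2, chr1:134079286-134079355, minus strand: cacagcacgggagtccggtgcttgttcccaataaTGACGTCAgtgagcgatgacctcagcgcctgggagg
The Npas4 window lies wholly within exons of the GENCODE M21 annotation, which starts the gene farther upstream than RefSeq does. Maff has 3 windows, and the CRE is in the second. Klf2 and Klf4 each held 1 CRE core, as did the third window of Maff and, outside the stretch shown, the window of Srf. The 4 windows of Csrnp1 all held at least 1 and 1 of them also 2 AP-1 sites, and the window of Ier5 held none of these letters. A match describes the letters in the window and is not evidence that a factor binds there.

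In GRCm38 coordinates, Npas4 (ENSMUSG00000045903) lies on chromosome 19 from 4984355 to 4990316, Klf2 (ENSMUSG00000055148) on chromosome 8 from 72319033 to 72321656, Klf4 (ENSMUSG00000003032) on chromosome 4 from 55527143 to 55532466 and Klf10 (ENSMUSG00000037465) on chromosome 15 from 38291463 to 38300706. Ier2 (ENSMUSG00000053560, chromosome 8 from 84661331 to 84662852) and Ier5 (ENSMUSG00000056708, chromosome 1 from 155096361 to 155099636) are genes of 1 exon. Maff (ENSMUSG00000042622) lies on chromosome 15 from 79346621 to 79359076, Btg2 (ENSMUSG00000020423) on chromosome 1 from 134075170 to 134079120, Csrnp1 (ENSMUSG00000032515) on chromosome 9 from 119971163 to 119984658 and Srf (ENSMUSG00000015605) on chromosome 17 from 46548329 to 46556175. Csrnp1 shares 224 bases, 6.45% of its exon length, with the antisense gene 1700019L13Rik, and since the sources used here do not state whether reads were counted by strand, its counts are uncertain to that extent. No exon of the other 9 genes overlaps an exon of another gene. The span of Srf overlaps Gm26904 on the opposite strand and Mir6976 on the same strand, without a shared exon base. The span of Csrnp1 also overlaps Cx3cr1, a microglia marker, on the same strand, without a shared exon base.

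The libraries held 23078094 to 49949281 counted reads per mouse. Values are given as CPM, the count relative to the library total after scaling by edgeR's TMM method. A call required an adjusted p under 0.1 by the quasi-likelihood test of edgeR, with Benjamini-Hochberg correction over the 17830 tested genes. The raw counts of the 10 genes ran from 15 to 88 for Maff, the lowest, and from 1558 to 3857 for Srf. Markers of hippocampal neurons summed to 4894 to 6044 CPM over the mice, with no marker at 0. Most of this sum was Camk2a, with group means of 4598 to 4721 CPM, so it says little about the other markers. Learning water replicate 24 had the highest sum of 7 oligodendrocyte markers (11956 CPM) and home cage water replicate 20 that of 8 choroid plexus markers (2346 CPM), while home cage caffeine replicate 17 had the highest mitochondrial share of counts (4.49%). The choroid plexus sum was 301 to 2346 CPM in home cage water and 158 to 427 CPM in learning water mice, with 5 of 8 markers called lower, and the sum of 8 microglia markers was 515 to 558 CPM in home cage caffeine and 447 to 517 CPM in learning caffeine mice, with 4 of 8 called lower. In bulk tissue, fewer cells of a type and less RNA per cell cannot be told apart.

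At rest without caffeine, the genes spanned a wide range of expression. Per kilobase of exon, Srf stood highest at 22.3 ± 1.65 CPM per kb (SD, n = 4), followed by Ier5 at 15.7 ± 0.52, Klf10 at 6.29 ± 0.99 and Btg2 at 5.58 ± 0.75 CPM per kb. Below them came Ier2 at 2.69 ± 0.24, Csrnp1 at 2.55 ± 0.58, Klf2 at 2.32 ± 0.32, Npas4 at 1.42 ± 0.21, Klf4 at 0.893 ± 0.170 and Maff at 0.270 ± 0.065 CPM per kb. Klf10 and Btg2, Ier2 and Csrnp1, and Csrnp1 and Klf2 overlapped between mice, and every other pair of neighbours in this order was separated in all 4 mice.

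**Figure D1:**
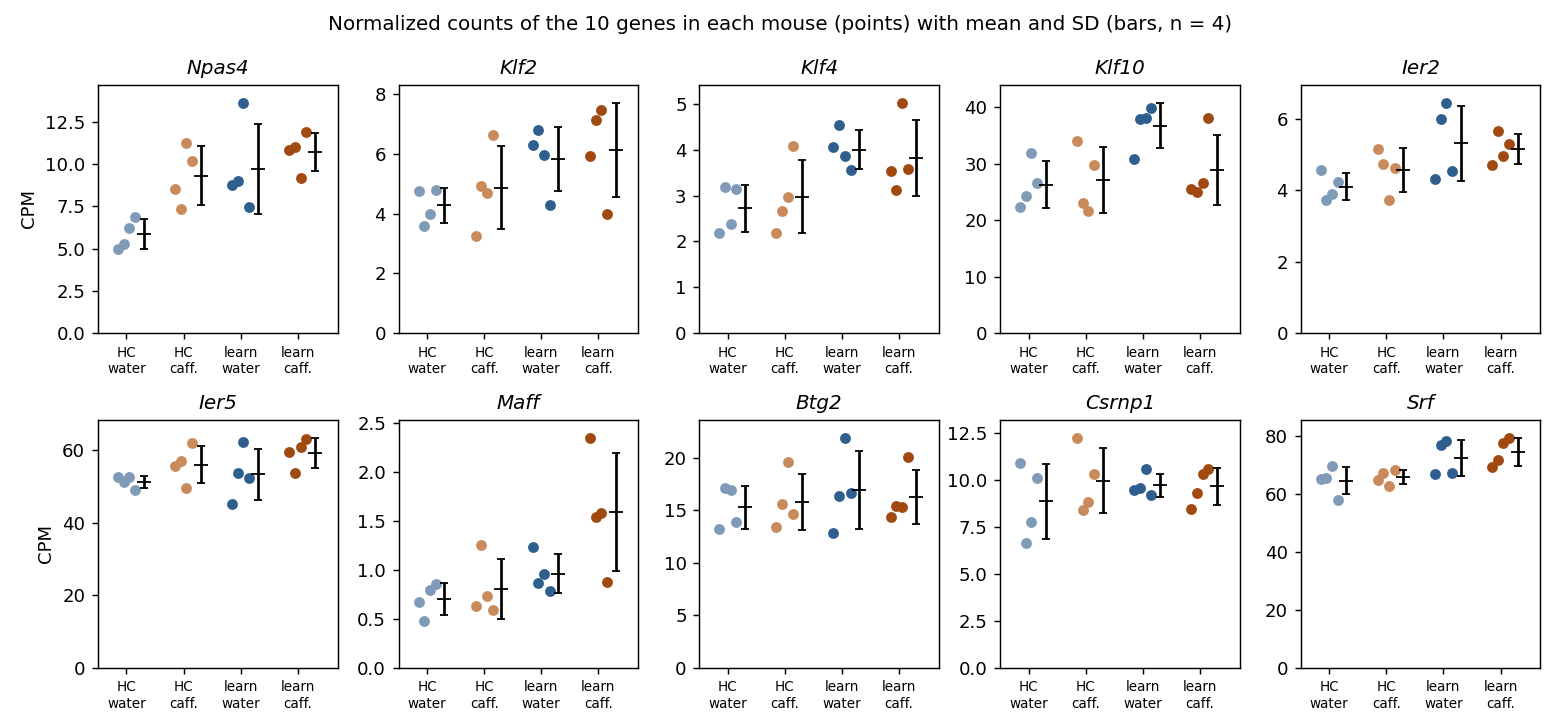
Normalized counts (CPM, vertical axis) of the 10 genes in each mouse, with 1 panel per gene, 4 points per group (HC, home cage; learn, learning; caff., caffeine) and the mean with SD beside them. Npas4 was at 5.00 to 6.90 CPM in home cage water mice and at 7.32 CPM or more in the other 3 groups, while Ier5, Btg2 and Csrnp1 overlapped among all 4 groups.

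The first question was how the genes responded to training in mice that drank water. Npas4 was the gene called, and it was higher after learning; all 10 genes had a positive log2 fold change, with a median of 0.41 beside -0.01 over all tested genes. The share of all tested genes called higher in this comparison was 0.639%, and 0.331% were called lower. An unadjusted p under 0.05 was found for 6 of the 10 genes (Npas4, Klf2, Klf4, Klf10, Ier2 and Srf), against 11.8% of all genes.

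Npas4, which needs a calcium signal and an ARNT partner to act, stood at 5.00, 5.29, 6.24 and 6.90 CPM in home cage water replicates 6, 8, 11 and 20. After learning, water replicates 24, 33, 36 and 38 had 8.79, 8.99, 13.6 and 7.46 CPM. All 4 learning mice were above all 4 resting mice, with replicate 36 well above the other learning mice. The means were 5.86 ± 0.87 and 9.71 ± 2.69 CPM (SD, n = 4 each), a 1.65-fold difference, with a log2 fold change of 0.73 (standard error, SE, 0.17, adjusted p = 0.0812 by edgeR's quasi-likelihood test). With each of the 16 mice left out in turn, 10 fits called Npas4, with log2 fold changes of 0.52 to 0.83 and adjusted p values of 0.0501 to 0.229 in edgeR. The call was lost without home cage water replicate 6, 8, 11 or 20 or learning water replicate 33 or 36. Without replicate 36 the log2 fold change was 0.52 (adjusted p = 0.229 in edgeR), without replicate 20 it was 0.82 (adjusted p = 0.140), and without replicate 24, the library with most oligodendrocyte RNA, it was 0.78 (adjusted p = 0.0793).

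Of the zinc finger genes, Klf4, a pluripotency factor that is also expressed in endothelium, was the other gene whose groups did not overlap. Its levels were 2.18, 3.19, 2.38 and 3.14 CPM at rest and 4.05, 4.55, 3.86 and 3.55 CPM after learning, in the order of the mouse numbers. Every learning mouse was thus above every resting mouse, as for 3.87% of all genes (the reverse held for 3.12%), but the log2 fold change of 0.55 (SE 0.19) had an adjusted p of 0.248 in edgeR's quasi-likelihood test. Klf10, also known as the TGF-beta inducible early gene, had 22.3, 24.3, 31.9 and 26.7 CPM at rest and 30.9, 38.001, 38.1 and 39.9 CPM after learning. Resting replicate 11 reached into the range of the learning mice, and the log2 fold change was 0.48 (SE 0.15, adjusted p = 0.201 in edgeR). Klf2, a shear-stress responsive factor of endothelium, ranged from 3.60 to 4.78 CPM at rest and from 4.30 to 6.80 CPM after learning, with a log2 fold change of 0.45 (SE 0.21, adjusted p = 0.423 in edgeR). Klf2 and Klf4 are also expressed in endothelium. The sum of 8 markers was 201 to 212 CPM in home cage water mice and 173 to 196 CPM in learning water mice, and all 8 had a negative log2 fold change (median -0.14), none of them called. Under caffeine the sums were 177 to 237 CPM at rest and 178 to 225 CPM after learning, and 2 of the 8 log2 fold changes were positive (up to 0.25). No endothelial marker was at 0, and the part of endothelial RNA in the Klf2 and Klf4 values was not tested.

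The other 6 genes had smaller or less even differences with water. Ier2 stood at 3.73 to 4.56 CPM at rest and at 4.30, 5.98, 6.43 and 4.53 CPM in learning replicates 24, 33, 36 and 38, where 2 of the learning mice overlapped the resting mice (log2 fold change 0.37, SE 0.14, adjusted p = 0.281 in edgeR). Srf was at 58.0 to 69.5 CPM at rest and at 66.8, 76.9, 78.2 and 67.0 CPM after learning, and again replicates 33 and 36 were the high ones (log2 fold change 0.16, SE 0.07, adjusted p = 0.346). Maff had a log2 fold change of 0.46 with a SE of 0.31, and Btg2, Csrnp1 and Ier5 had 0.15, 0.14 and 0.06, none of which passed the test. Replicates 33 and 36 had mean z scores of 0.64 and 1.22 over the 10 genes, and replicates 24 and 38 had -0.19 and -0.12. The z score of a gene in a mouse is its distance from the mean CPM of the 16 mice, in units of their SD. Part of the group was thus near the average of the whole series, though replicates 24 and 38 were still above all home cage water mice, which were at -0.94 to -0.59. By this mean, replicates 33 and 36 stood farthest above the home cage water mice. Single genes differed from it: within learning water mice, Klf10 was highest in replicate 38 (39.9 CPM) and Maff in replicate 24 (1.24 CPM).

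**Figure D2:**
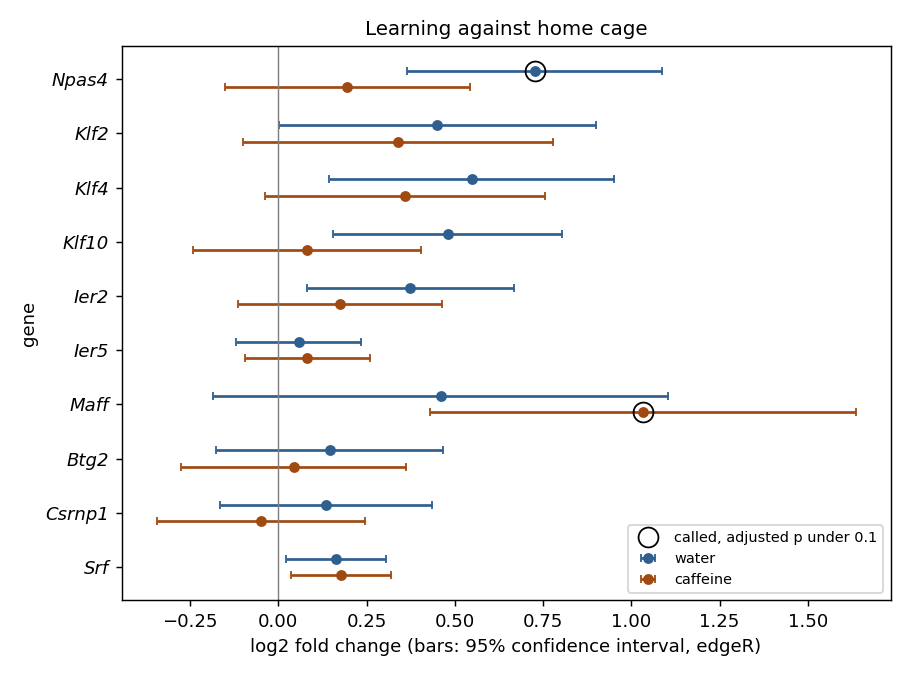
Log2 fold change of each gene (vertical axis, 10 genes) in learning against home cage mice, with water and with caffeine; bars are 95% confidence intervals from edgeR. The largest estimates were 0.73 for Npas4 with water and 1.03 for Maff with caffeine, and the intervals of Btg2, Csrnp1 and Ier5 contained 0 with both drinks.

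Under caffeine, the called gene was Maff, which was higher after learning, in a comparison in which 3.16% of all genes were called higher and 2.13% lower. The median log2 fold change of the 10 genes was 0.18, beside -0.01 over all genes, and 9 of the 10 were positive. Home cage caffeine replicates 2, 9, 14 and 17 had 0.630, 1.25, 0.738 and 0.586 CPM of Maff. Learning caffeine replicates 22, 27, 30 and 40 had 2.35, 1.54, 1.59 and 0.873 CPM. Replicate 22 was by far the highest of the 16 mice, and replicate 40 lay within the range of the resting mice, below home cage replicate 9. The means of 0.80 ± 0.31 and 1.59 ± 0.60 CPM (SD, n = 4 each) gave a 2.05-fold difference, a log2 fold change of 1.03 (SE 0.29, adjusted p = 0.0646 in edgeR's quasi-likelihood test). With 1 mouse left out, Maff was called in 12 of 16 fits, with log2 fold changes of 0.81 to 1.28 and adjusted p values of 0.0333 to 0.171 in edgeR. The call was lost without home cage caffeine replicate 2 or 17 or learning caffeine replicate 22 or 30, and without replicate 22 the log2 fold change was 0.81 (adjusted p = 0.156 in edgeR). Maff has the fewest counts of the 10 genes, and its SE was the largest.

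Srf, by contrast, gave a small but even difference under caffeine. It had 64.7, 67.1, 62.8 and 68.3 CPM in resting caffeine mice and 69.2, 71.6, 77.4 and 79.2 CPM in learning caffeine mice. The groups did not overlap, as was the case for 5.64% of all genes in this direction and 5.24% in the other, and the log2 fold change was 0.18 (SE 0.07, adjusted p = 0.165 in edgeR). Npas4 had 8.51, 7.32, 11.3 and 10.2 CPM at rest under caffeine and 10.8, 11.01, 9.19 and 11.9 CPM after learning. These groups overlapped broadly, with resting replicates 14 and 17 at the level of the learning mice (log2 fold change 0.20, SE 0.16, adjusted p = 0.540 in edgeR). Klf10 stood at 34.0, 23.0, 21.6 and 29.9 CPM at rest and at 25.5, 25.1, 26.7 and 38.1 CPM after learning, where replicate 40 was alone above the others (log2 fold change 0.08, adjusted p = 0.808). Klf4 and Klf2 had log2 fold changes of 0.36 and 0.34 with SEs of 0.19 and 0.21, and Ier2, Ier5, Btg2 and Csrnp1 had 0.17, 0.08, 0.04 and -0.05. None of these passed the test.

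Over both drinks together, the average of the learning responses, 5 of the 10 genes rose and none fell, while 7.81% of all genes were called higher and 6.71% lower. In the same comparison all 8 choroid plexus markers (median log2 fold change -1.29) and 5 of 8 microglia markers (median -0.15) were called lower. Also called lower were 1 of 8 endothelial (median -0.14), 1 of 7 astrocyte (median -0.03) and 1 of 7 hippocampal neuron markers (median 0.01). None of these markers was called higher, and the part of these cell types in the responses of the 10 genes was not tested. Maff rose by 0.75 (SE 0.21, adjusted p = 0.0377), Npas4 by 0.46 (SE 0.12, adjusted p = 0.0260) and Klf4 by 0.45 on the log2 scale (SE 0.13, adjusted p = 0.0468), all by edgeR's quasi-likelihood test. Ier2 rose by 0.27 (SE 0.10, adjusted p = 0.0899) and Srf by 0.17 (SE 0.05, adjusted p = 0.0368) in the same test. Maff had the largest change and also the widest error, and Srf the smallest change of these 5 with the narrowest. Klf2 at 0.40 (adjusted p = 0.107) and Klf10 at 0.28 (adjusted p = 0.116) missed the threshold narrowly in edgeR, and Btg2 at 0.10, Ier5 at 0.07 and Csrnp1 at 0.04 had adjusted p values of 0.481 to 0.825. Npas4, Klf4, Maff and Srf were called whichever of the 16 mice was left out, and Ier2 in 5 of the 16 fits.

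The 95% intervals of the genes not called show what size of response these data leave possible. For Csrnp1 the interval of the average response was -0.17 to 0.25 on the log2 scale, for Btg2 it was -0.13 to 0.32 and for Ier5 -0.05 to 0.20. Ier5, one of the more highly expressed genes per kilobase, had the narrowest interval of these. Csrnp1 was at 6.63 to 10.9 CPM in home cage water mice and at 8.45 to 10.6 CPM in learning caffeine mice, the resting groups holding both the lowest and the highest mouse of the series for this gene. Btg2, whose promoter holds a full CRE, was at 13.2 to 17.2 CPM in home cage water mice and at 12.9 to 21.9 CPM in learning water mice.

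**Figure D3:**
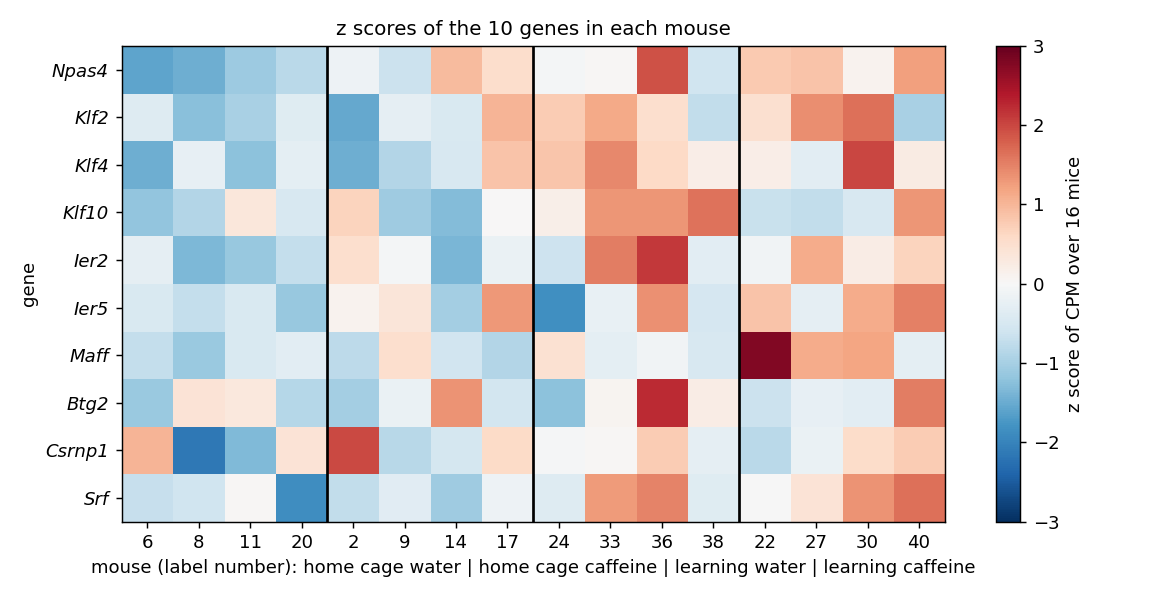
Heatmap of the z score of each gene's CPM over the 16 mice (rows, 10 genes; columns, mice by label number, with black lines between the 4 groups; red above and blue below the gene's mean). Maff reached 2.77 in learning caffeine replicate 22, and the 4 home cage water mice had at most 3 of the 10 genes above their mean.

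Seen per mouse, the 10 genes did not move as a block. The mean z score was -0.94 to -0.59 in home cage water mice, -0.45 to 0.25 in home cage caffeine mice, -0.19 to 1.22 in learning water mice and 0.29 to 0.77 in learning caffeine mice. Learning water replicate 36 had 9 of the 10 genes above their mean, Maff being the exception. Learning caffeine replicate 22 had the highest Maff of all mice but only 5 genes above their mean, with Klf10, Btg2 and Csrnp1 among those below. These z scores were averaged over genes that differ in count depth, and they are a description of the mice with no test.

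Whether caffeine changed the response to learning was tested as the difference between both responses, and none of the 10 genes passed. Nor did any of the 17830 genes (0% called in either direction by edgeR; DESeq2 called 1 higher and 6 lower, none of them among the 10), and 648 genes (3.63%) had an unadjusted p under 0.05. For Npas4 the response under caffeine minus that with water was -0.53 (95% interval -1.03 to -0.03, unadjusted p = 0.0393 and adjusted p = 1 in edgeR), the lowest of the 10. Maff was at the other end with 0.57 (interval -0.32 to 1.46), and Klf10 had -0.40 (interval -0.86 to 0.06). These intervals are wide beside the responses themselves, so a sizeable positive difference for Maff or a sizeable negative difference for Klf10 was not excluded. For Srf, the difference of 0.01 had an interval of -0.19 to 0.22. All 7 oligodendrocyte markers had a negative difference (median -0.55) and 7 of 8 choroid plexus markers a positive one (median 1.18), none of them called. The part of these cell types in the differences of the 10 genes was not tested.

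The second question was the effect of caffeine itself, first at rest. None of the 10 genes was called, nor was any of the 17830 genes (0% called higher and 0% lower; DESeq2 called 2 higher and 17 lower, none of them among the 10), and 636 genes, 3.57%, had an unadjusted p under 0.05. Npas4 was the gene of the 10 with the largest estimate: all 4 home cage caffeine mice, at 7.32 to 11.3 CPM, were above the 4 home cage water mice, at 5.00 to 6.90 CPM. The means of 9.33 ± 1.75 and 5.86 ± 0.87 CPM (SD, n = 4 each) differed 1.59-fold. The log2 fold change was 0.67 (SE 0.17, 95% interval 0.31 to 1.04, unadjusted p = 0.00115, adjusted p = 0.578 in edgeR). The exact two-sided permutation test over the 8 mice gave p = 0.0286, the smallest that 4 mice against 4 allow. Any full separation of 4 mice from 4 gives this p, so it only restates the separation, and it was not adjusted over the 10 genes. Of all genes, 0.981% were separated in this direction between these groups and 1% in the other. Of 12 other rapid immediate early genes, 11 had a positive log2 fold change here and none was called. The 12 values ran from -0.09 to 0.92, with a median of 0.19. Fos (1.59 to 3.12 CPM with water, 3.71 to 6.42 CPM with caffeine) and Egr2 (0.119 to 0.564 and 0.624 to 0.819 CPM) were separated likewise. The rest of that list overlapped. The choroid plexus markers differed between the same groups, with sums of 301 to 2346 CPM with water and 188 to 498 CPM with caffeine; all 8 had a negative log2 fold change (median -1.91), none of them called, and their part in the Npas4 difference was not tested. When every gene with at least 1 count was tested, the adjusted p of Npas4 was 0.0745 in edgeR, and it was called. In that fit 3 of 33354 genes were called higher and 31 lower. With at least 10 counts in every library, or with only the 8 libraries of the comparison, 0 of the 10 genes were called. With the main filter and each of the 16 mice left out in turn, 0 fits called Npas4. Its log2 fold changes were then 0.57 to 0.77 and its adjusted p values 0.294 to 0.9998 in edgeR. The home cage water mice are the reference both here and for the learning response with water, so the 2 Npas4 differences share the same 4 values.

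The remaining 9 genes had log2 fold changes of 0.03 to 0.18 at rest, and each overlapped between the groups. Klf2 at 0.18 and Csrnp1 at 0.18 were the highest of these, and Srf at 0.03 the lowest. Home cage caffeine replicate 17, the mouse with the highest mitochondrial share, had the highest Klf2 (6.64 CPM), Klf4 (4.07 CPM) and Ier5 (61.9 CPM) of its group.

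After training, caffeine and water mice overlapped in all 10 genes (1.25% of all genes did not overlap and were higher with caffeine, 1.35% lower), and none was called (0% of all genes in each direction, with 3.93% at an unadjusted p under 0.05). Maff was 0.71 higher on the log2 scale with caffeine (SE 0.27, unadjusted p = 0.0191, adjusted p = 0.999 in edgeR). Klf10 had a log2 fold change of -0.35 (SE 0.15, unadjusted p = 0.0342, adjusted p = 0.999 in edgeR), with 3 caffeine mice at 25.1 to 26.7 CPM below all 4 water mice and replicate 40, at 38.1 CPM, among them. Npas4 was at 7.46 to 13.6 CPM with water and at 9.19 to 11.9 CPM with caffeine, a log2 fold change of 0.14 (interval -0.20 to 0.49). Averaged over rest and learning, the caffeine effect was 0.41 for Npas4 (unadjusted p = 0.00325, adjusted p = 0.855 in edgeR) and 0.14 for Ier5 (unadjusted p = 0.0310, adjusted p = 0.986), and no gene was called.

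**Figure D4:**
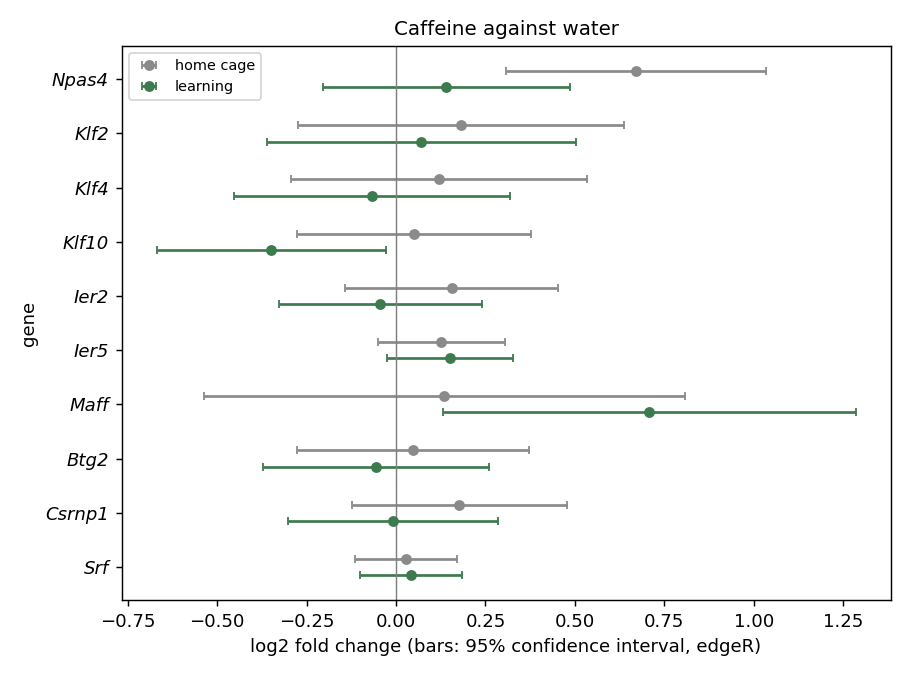
Log2 fold change of each gene (vertical axis) with caffeine against water, in home cage mice and in learning mice, with 95% confidence intervals from edgeR. The interval lay above 0 for Npas4 at rest (0.31 to 1.04) and for Maff after learning, and below 0 for Klf10 after learning, and no gene passed the adjusted threshold.

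Relatives and partners of the 10 genes place them in their families. Of the 14 other KLF genes, 11 were tested, and Klf15 and Klf9 rose in the average learning response. Klf15, a metabolic regulator and glucocorticoid target, went from 20.0 ± 4.75 to 25.9 ± 1.65 CPM with water and from 16.96 ± 1.04 to 25.7 ± 2.53 CPM with caffeine (SD, n = 4 each), an average log2 fold change of 0.49 (SE 0.08, adjusted p = 0.00221 in edgeR). Klf15 was called higher under caffeine alone too (0.60, adjusted p = 0.0139), where Klf11, a relative of Klf10 in the TIEG group, was called lower (-0.51, adjusted p = 0.0545). Klf9, also a glucocorticoid target, rose by 0.24 (adjusted p = 0.0584 in edgeR). In a list of 8 glucocorticoid response genes, 2 were called higher with water and 5 under caffeine, and the part of the corticosteroid signal in the Klf15 and Klf9 responses was not tested.

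Among partners and relatives of NPAS4 (Npas1, Npas2, Npas3, Arnt and Arnt2), the clock factor Npas2 fell by 0.34 on the log2 scale (SE 0.12, adjusted p = 0.0750 in edgeR, average response), and the dimerization partners Arnt and Arnt2 had 0.11 and -0.03, not called. Mafg, a small Maf like MAFF, rose by 0.14 (adjusted p = 0.0402), the 1 gene called of 5 MAF relatives. Tob2, an antiproliferative relative of BTG2, rose by 0.24 (adjusted p = 0.0238), as 1 of 4 tested of 5 BTG and TOB relatives. Neither Ier3 (-0.04) nor Ier5l (-0.12) was called, and neither was Csrnp3 (0.10) or Csrnp2 (-0.01). Of 6 SRF cofactors, 5 were tested, and Mrtfa, the actin-regulated coactivator, rose by 0.24 (SE 0.04, adjusted p = 0.00109 in edgeR). Mrtfa was also called under caffeine alone (0.29, adjusted p = 0.00937), and Elk4, a TCF cofactor, had 0.11 (adjusted p = 0.103).

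The scale of the response of the 10 genes can be read against 12 other rapid immediate early genes, Fos, Fosb, Fosl2, Junb, Egr2, Egr3, Egr4, Nr4a1, Nr4a3, Arc, Dusp1 and Atf3. All 12 were tested, 10 were called higher with water and 10 under caffeine, and 12 in the average response, with log2 fold changes of 0.33 to 3.45 and a median of 0.78. The largest were Egr2 (3.45), Fos (1.98) and Fosb (1.11). The corresponding median of the 10 genes was 0.28 and their range 0.04 to 0.75, so that Maff at 0.75 was below the median of that list. These 2 lists were chosen by name with earlier results known, and the difference between them was not tested.

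**Figure D5:**
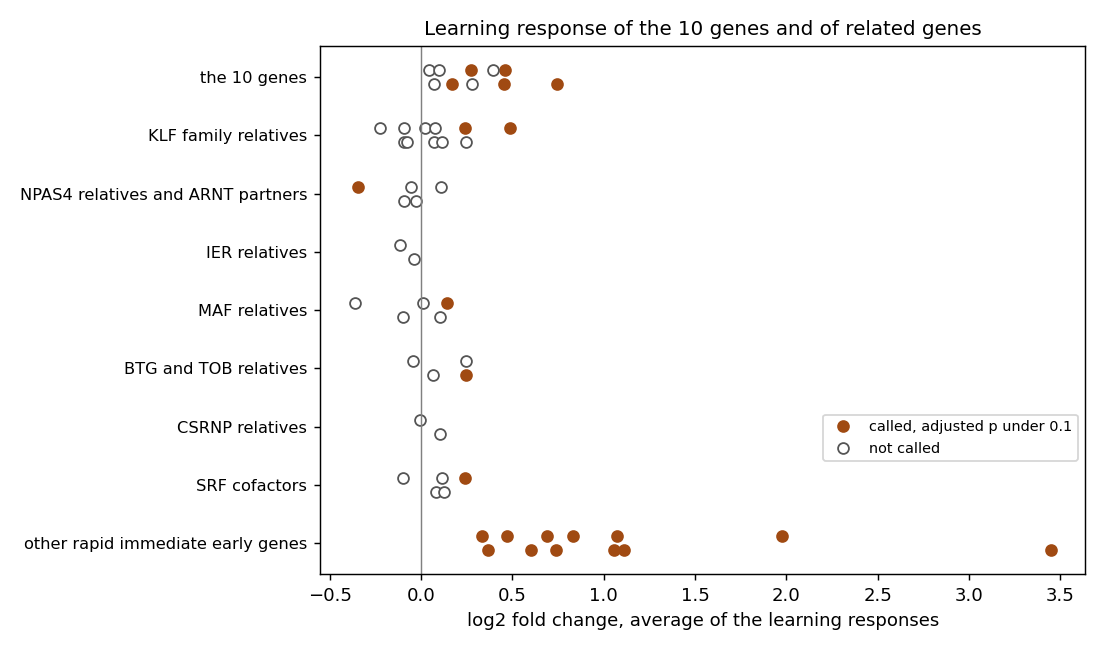
Average learning response (log2 fold change, horizontal axis) of the 10 genes, of their relatives and cofactors by list and of 12 other rapid immediate early genes; filled points were called at an adjusted p under 0.1 and open points were not. The 10 genes lie between 0.04 and 0.75, and the other immediate early genes between 0.33 and 3.45.

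The non-member gene whose log2 CPM followed each member most closely over the 16 mice was found among the 13370 genes whose log2 CPM averaged 1 or more. It was Nab2 for Klf10 (Pearson r = 0.90), Nuak1 for Srf (r = 0.90), Grm2 for Btg2 (r = 0.89), Hic1 for Klf4 (r = 0.87) and Gm48678 for Maff (r = 0.86). For Klf2 it was Tns2 (r = 0.85), for Ier2 Dusp1 (r = 0.85), for Csrnp1 Pip5kl1 (r = 0.83), for Npas4 Rmnd1 (r = 0.80) and for Ier5 Pde4a (r = 0.80). Nab2 encodes a corepressor of the EGR factors and Dusp1 a phosphatase that inactivates MAP kinases, both themselves activity-induced. The points of each correlation are the same 16 libraries, with their group differences and depth, and the values are the highest of many and carry no test.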

How the data were processed

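Stranded poly(A) libraries were read single-end over 50 bases by the authors, aligned to mm10 with STAR and Bowtie 2, and unique alignments were counted with HTSeq 0.6.1p1 in union mode. The deposited values are raw counts for each Ensembl gene in 16 mice, neither normalized nor pooled. The counts were analysed with edgeR 4.0.16 in R 4.3.3: TMM scaling, the filterByExpr filter, 1 mean per group over the 16 libraries, the quasi-likelihood test and Benjamini-Hochberg adjustment over the 17830 tested genes. Fold changes are log2, standard errors come from the F statistic, and intervals are 95%. GENCODE M21 gave symbols and positions for 35247 of 35328 genes. Library pairs within a group differed by more than sampling noise (chi-square per degree of freedom of 5.26 or more), so each mouse counted once. DESeq2 1.42.0, other filters and thresholds, 8-library fits and leaving out each mouse were alternatives. The fits were tested on simulated data. All 10 members and, of the related lists, each called gene, or else the 2 of smallest p, were named; for each member the gene of highest correlation was named too. The members and lists were chosen with earlier results of these data known.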

Additional observations from a re-analysis of the deposited data

Results flagged for a closer look

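Klf10 in learning caffeine replicate 40 stood far from the other 3 mice of its group, at 38.1 CPM against 25.1 to 26.7 CPM, a gap of 0.88 of the range of the group, above the 95% critical value of Dixon's test for 4 samples. It was the 1 value flagged among 40 groups of 4 mice (10 genes in 4 groups), and chance alone flags about 1 in 20 groups. Without this mouse, the learning response of Klf10 under caffeine was -0.07 on the log2 scale (0.08 with it), with an adjusted p of 0.855 in edgeR's quasi-likelihood test. The same mouse had the highest Ier5, Btg2 and Srf of the learning caffeine group (63.1, 20.1 and 79.2 CPM) and the lowest Klf2 and Maff (3.98 and 0.873 CPM).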

How the results depend on the processing

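With water, where 1 of the 10 genes (Npas4) was called higher after learning, 0 were called at an adjusted p under 0.05 and 0 when only the 8 libraries of the comparison entered the fit, and 2 (Npas4 and Klf10) were called by DESeq2's Wald test and 2 (the same genes) when every gene with at least 1 count was tested. Under caffeine, where 1 (Maff) was called, 0 were called at an adjusted p under 0.05 and 0 with 8 libraries. For caffeine at rest, 1 gene (Npas4) instead of 0 was called when genes with at least 1 count were tested, where 3 of all 33354 genes were called higher and 31 lower. Leaving out each mouse in turn gave 0 to 1 called genes with water and 0 to 1 under caffeine. In the average response, Klf2 was also called with DESeq2 size factors (adjusted p = 0.0997 in edgeR), and Klf2 and Klf10 by DESeq2 (0.0596 and 0.0647). When genes with at least 1 count were tested, 6 instead of 5 genes were called there: Klf2 and Klf10 gained a call (adjusted p = 0.0641 and 0.0517 in edgeR) and Ier2 lost its own (0.109). None of the reported log2 fold changes of the 10 genes turned its sign under a change of normalization, filter, test or threshold. With a mouse left out, signs of values that had not passed the test turned, among them those that follow. Ier5 with water ranged from -0.021 to 0.14, Klf10, Btg2 and Csrnp1 under caffeine from -0.070 to 0.23, -0.062 to 0.17 and -0.12 to 0.084, Csrnp1 in the average response from -0.0007 to 0.12, and Srf in the difference between the responses from -0.025 to 0.064. With caffeine at rest, 6 of the 10 genes turned: Klf2 from -0.013 to 0.34, Klf4 from -0.073 to 0.25, Klf10 from -0.081 to 0.16, Maff from -0.11 to 0.26, Btg2 from -0.076 to 0.12 and Srf from -0.019 to 0.069. Over all genes, the counts of higher and lower calls with water (114 and 59) became 282 and 144 with DESeq2, 193 and 97 with at least 1 count, 66 and 19 with 8 libraries, 50 and 20 at an adjusted p under 0.05 and 30 to 217 and 5 to 95 with a mouse left out; those under caffeine (563 and 379) became 985 and 596, 524 and 269, 352 and 265, 293 and 156, and 249 to 729 and 125 to 534. In the average response (1393 and 1197) they were 819 and 565 at an adjusted p under 0.05. The cause of these shifts was not tested. No paired analysis was possible because no replicate number in the labels is shared between groups. Maff had the fewest counts, 15 to 88 per mouse.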
